A study of Rattus norvegicus with 20 samples.

Results

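Fatty acid oxidation was followed here through 36 listed genes, whose ProbeSets (the sets of short probes that together measure 1 transcript on an Affymetrix RAE230A array) were found by the gene symbols of the array's annotation. They held 44 of the 15923 ProbeSets of the array. Of the 36 genes, 19 act in the mitochondrion, 9 in the peroxisome and 8 in both or elsewhere. A gene was represented by the ProbeSet of its own with the highest mean signal, which gave 35 genes, because Acaa1a was measured only by a ProbeSet shared with Acaa1b. A mean signal of 4 on the log2 scale was taken as the limit of expression, and 34 of the 35 genes reached it, against 5388 of the 10412 genes of the array. The gene below it was Acot1, an acyl-CoA thioesterase, at group means from 3.41 to 3.76.

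Liver mRNA was measured in 20 male rats of 10-12 weeks, 4 separate animals for each of 3 strains and 2 lines, in order to see how far hepatic mRNA abundances differ within and between strains. S-D (Sprague-Dawley) is out-bred, L-E (Long-Evans, Turku/AB) is in-bred, and H/W (Han/Wistar, Kuopio) is a random-bred closed colony. Line-A and Line-C descend from crosses of L-E with H/W. The aryl hydrocarbon receptor gene Ahr is wild-type in S-D, L-E and Line-C, while H/W and Line-A carry the H/W variant of it. All rats had been given corn oil by gavage 19 h before the liver was taken, although the labels of S-D state only that they were controls, and no rats without corn oil were analysed here. All values below are log2 GC-RMA signals as deposited, so that a difference of 1 is a 2-fold difference, and levels of different genes are not compared.

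Fatty acids are activated to acyl-CoA and are broken down in rounds of dehydrogenation, hydration, a further dehydrogenation and thiolysis. Long chains enter the mitochondrion as carnitine esters, whereas very long and branched chains are first shortened in the peroxisome, from which the products are passed on as carnitine esters, and omega-hydroxylation in the endoplasmic reticulum opens a side route. In rodent liver many of these genes are targets of the nuclear receptor PPARA and rise in fasting or on treatment with peroxisome proliferators.

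The median signal of an array lay between 3.47 and 3.69, and no 2 arrays were duplicates (highest correlation between arrays 0.998). The arrays fell on 5 scan days. All S-D arrays shared 1 scan day, with a chip lot and an operator of their own, and all arrays of both lines shared another, so for S-D against the other groups, and for the lines against L-E or H/W, scan day and group cannot be told apart. For these pairs a fit with scan day as a random block, given below, cannot remove a day effect. It applies 1 correlation of 0.176 to all ProbeSets, and calls kept or lost in it do not tell strain from scan day. General hepatocyte markers had per-rat medians between -0.09 and 0.11 around their own means over all rats. The median of markers of pericentral hepatocytes, those around the central vein, was -0.39 to 0.02 in S-D and 0.03 to 0.21 in L-E. Of these 7 genes 3 were called higher in L-E and 0 lower, although the median difference over them was -0.05. The periportal median overlapped between these strains, at -0.11 to 0.01 in S-D and -0.10 to 0.22 in L-E. In a bulk sample, fewer cells of a type and less RNA per cell cannot be told apart. Markers of other liver cells moved with the groups too. The stellate cell and fibroblast median was 0.10 to 1.07 in the S-D rats and -0.60 to -0.37 in the L-E rats (4 of 8 genes lower in L-E). The endothelial median was 0.32 to 0.58 in S-D and -0.09 to 0.07 in L-E. The Kupffer cell median was -0.70 to -0.45 in Line-A and -0.09 to 0.45 in L-E (5 of 8 lower in Line-A). The 3′ minus 5′ signal of GAPDH, a measure of RNA integrity, was 0.54 to 0.58 in S-D and 0.23 to 0.34 in L-E. The part of each of these in the comparisons below was not tested.

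Over the 5 groups, the moderated F-test of limma called 7 of the 35 genes at 0.1% FDR, against a background of 8.98% of the 5388 expressed genes. They were Etfdh, Eci1, Acadl, Acat1, Ehhadh, Decr1 and Echs1, of which all but Ehhadh are mitochondrial (6 of 19 mitochondrial, 1 of 8 peroxisomal and 0 of 8 other genes). At 1% FDR 16 were called, against 22.0% of expressed genes (8 of 19 mitochondrial, 4 of 8 peroxisomal and 4 of 8 other genes). At 5% FDR 25 were called, against 43.5% of expressed genes (13 of 19 mitochondrial, 7 of 8 peroxisomal and 5 of 8 other genes). The order of the compartments thus changed with the threshold. L-E had the highest mean of the 5 groups in 19 of the 35 genes, against 18.3% of expressed genes, and S-D had the lowest in 16, against 23.4%. The share of the total variance that lay within strains (W/T) had a median of 0.432 over the listed genes and 0.625 over expressed genes, and it was 0.432 for mitochondrial and 0.391 for peroxisomal genes. It was 1, with no variance attributed to strain, for Acsl3, an acyl-CoA synthetase, and for Etfb, a subunit of the electron transfer flavoprotein. With scan day as a random block the F-test called none of the 35 genes, against 2.95% of expressed genes. With S-D replicate 2, L-E replicate 2 or Line-A replicate 3 left out it called 4, and with L-E replicate 1 or Line-A replicate 4 left out it called 3.

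**Figure D1:**
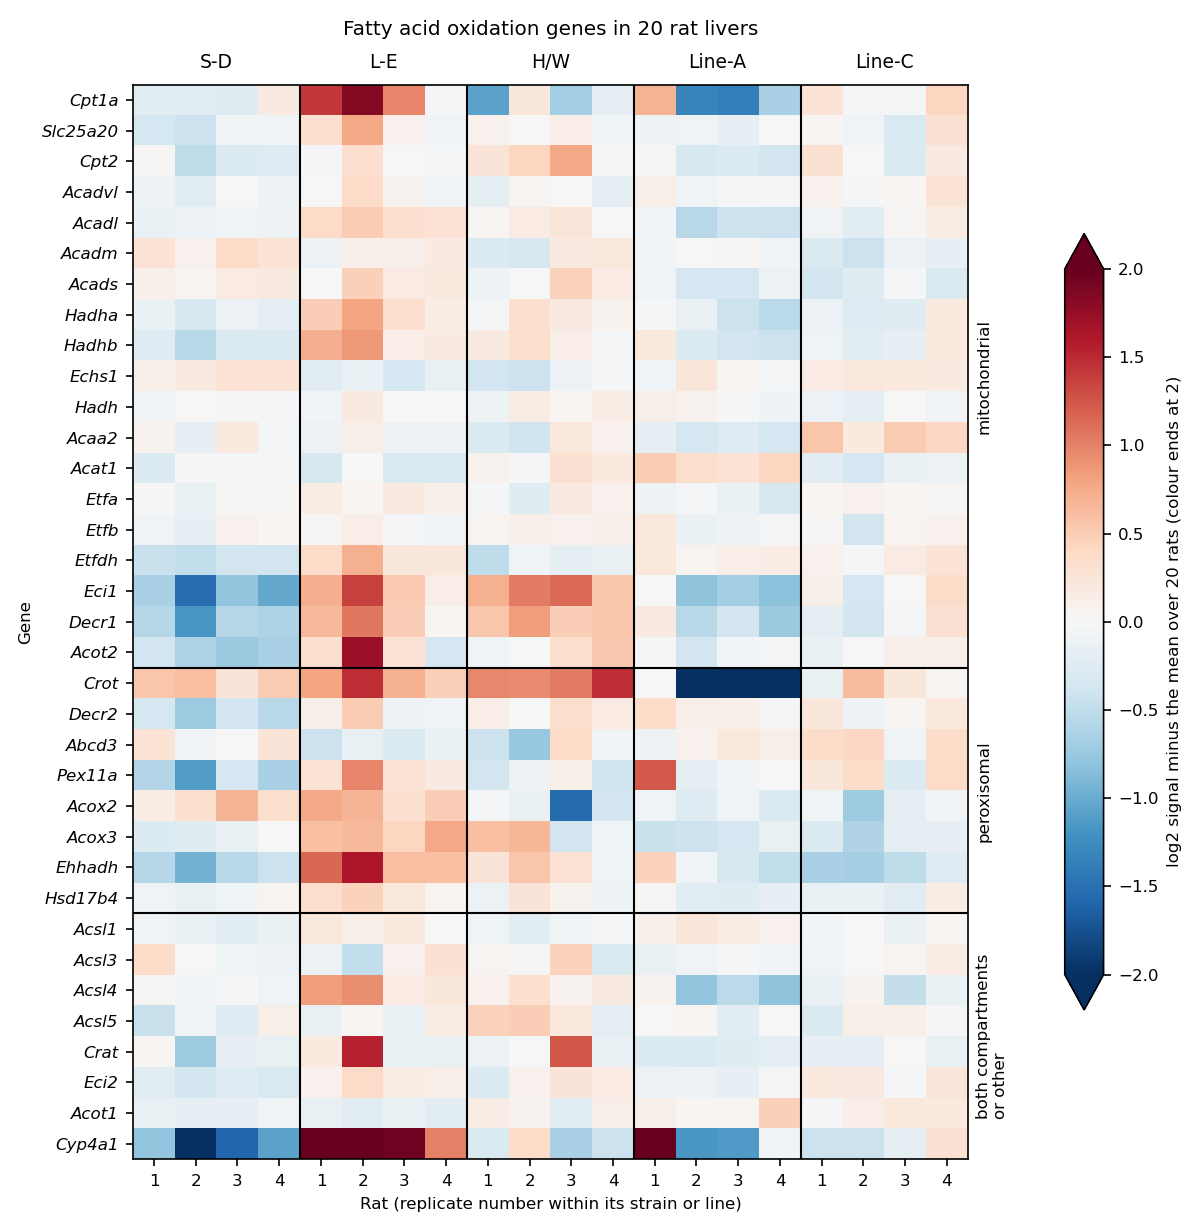
Heat map of the 35 genes (rows, by compartment) in the 20 rats (columns, by strain or line and replicate number). Colour gives the log2 signal minus the gene's mean over all rats, with the scale ending at 2 either way. L-E columns hold most of the raised values, L-E replicate 2 most of all, and Crot stands out as low in 3 Line-A rats.

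Of the 10 pairs of groups, L-E against S-D had the most calls at 1% FDR, 13 against 8 for Line-A against L-E, although Line-A against L-E had more with equal array medians (11 against 10), at 5% FDR (19 against 17) and without H/W replicate 3 (16 against 12). Of the 35 genes, 12 were higher in L-E and 1 was lower at 1% FDR, against backgrounds of 3.73% and 5.83% of expressed genes. The median difference over the listed genes was 0.38, with 28 of 35 positive, and over expressed genes it was -0.02. The called genes came from several stages, and none, by the brighter ProbeSets, from the carnitine shuttle: activation (Acsl1), the mitochondrial cycle (Acadl, Hadha, Hadhb, Etfdh), the enzymes that handle double bonds (Eci1, Eci2, Decr1, Decr2), the peroxisomal cycle (Acox3, Ehhadh) and omega-hydroxylation (Cyp4a1). Echs1 was the 1 gene that was lower. The 4 L-E rats lay wholly above the 4 S-D rats for 16 of the 35 genes, against 12.6% of expressed genes. The shares of mitochondrial genes (6 of 19 higher, 1 lower) and of peroxisomal genes (3 of 8 higher) are given without a test. With scan day as a random block 3 of these calls were made (Eci1, Ehhadh and Etfdh), against 4.05% of expressed genes. Since all S-D arrays had a scan day of their own, these 3 calls are not freed of a day effect.

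Cyp4a1, a fatty acid omega-hydroxylase and a classical PPARA target, had the largest difference. Its signal was 10.45, 9.14, 9.65 and 10.17 in the S-D rats and 13.29, 13.73, 13.18 and 12.24 in the L-E rats. The H/W rats were at 10.94, 11.60, 10.59 and 10.81 and the Line-C rats at 10.80, 10.81, 11.06 and 11.54. The Line-A rats were far apart, at 13.36, 10.07, 10.11 and 11.18. No L-E rat overlapped with S-D, H/W or Line-C, whereas Line-A replicate 1 lay within the L-E range. L-E exceeded S-D 9.56-fold (log2 difference 3.26 ± 0.56 SE, adjusted p = 0.00109), and no other pair was called for this gene.

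Ehhadh, the bifunctional enzyme of the peroxisomal cycle, gave 11.50, 11.13, 11.52 and 11.64 in S-D and 13.23, 13.69, 12.68 and 12.68 in L-E. H/W was at 12.34, 12.63, 12.37 and 12.00, Line-A at 12.53, 12.02, 11.75 and 11.59, and Line-C at 11.43, 11.41, 11.57 and 11.82. Every L-E rat was above every other rat. L-E exceeded S-D 3.08-fold (1.62 ± 0.23 SE, adjusted p = 0.000175), Line-C 2.85-fold (adjusted p = 0.000708) and Line-A 2.14-fold (adjusted p = 0.00472), and the difference of H/W from L-E was not called. Acox3, a peroxisomal acyl-CoA oxidase, had the same 3 calls, with L-E 1.72-fold above S-D (0.78 ± 0.18 SE, adjusted p = 0.00964).

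Of the 4 enzymes that prepare unsaturated fatty acids for the cycle, each was called higher in L-E than in S-D. Eci1, which shifts double bonds in the mitochondrion, gave 10.42, 9.54, 10.27 and 10.04 in S-D, 11.79, 12.44, 11.60 and 11.20 in L-E and 11.78, 12.08, 12.19 and 11.62 in H/W. Line-A was at 11.06, 10.26, 10.39 and 10.24 and Line-C at 11.19, 10.72, 11.05 and 11.43. S-D did not overlap with L-E, H/W or Line-C but did with Line-A. L-E exceeded S-D 3.22-fold (1.69 ± 0.26 SE, adjusted p = 0.000414) and H/W exceeded S-D 3.61-fold (adjusted p = 0.000241), while Line-A was 2.41-fold below L-E (adjusted p = 0.00417) and 2.70-fold below H/W (adjusted p = 0.00283).

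Decr1, the mitochondrial 2,4-dienoyl-CoA reductase, followed a like order. It gave 11.27, 10.68, 11.28 and 11.23 in S-D, 12.50, 12.89, 12.33 and 11.88 in L-E and 12.40, 12.68, 12.33 and 12.40 in H/W. Line-A was at 12.02, 11.29, 11.48 and 11.10 and Line-C at 11.67, 11.48, 11.80 and 12.14. S-D overlapped with Line-A only. L-E exceeded S-D 2.44-fold (1.29 ± 0.22 SE, adjusted p = 0.000987) and H/W exceeded S-D 2.53-fold (adjusted p = 0.00105). Decr2, its peroxisomal counterpart, was at 10.35, 9.97, 10.31 and 10.14 in S-D and was higher in all 4 other groups, by between 0.60 and 0.66, but all 4 calls were lost with scan day as a random block and with equal array medians, and that of Line-C also in 10 of the 20 fits with 1 array left out. Eci2, an isomerase found in both organelles, was higher than in S-D in L-E by 0.47 (adjusted p = 0.00365) and in Line-C by 0.43 (adjusted p = 0.00773), and it was not called against S-D in H/W or Line-A. A ProbeSet shared by Eci2 and Eci3 had its highest mean in S-D, at 12.00, with the other groups at 11.80 to 11.97, and was not called by F (adjusted p = 0.424).

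**Figure D2:**
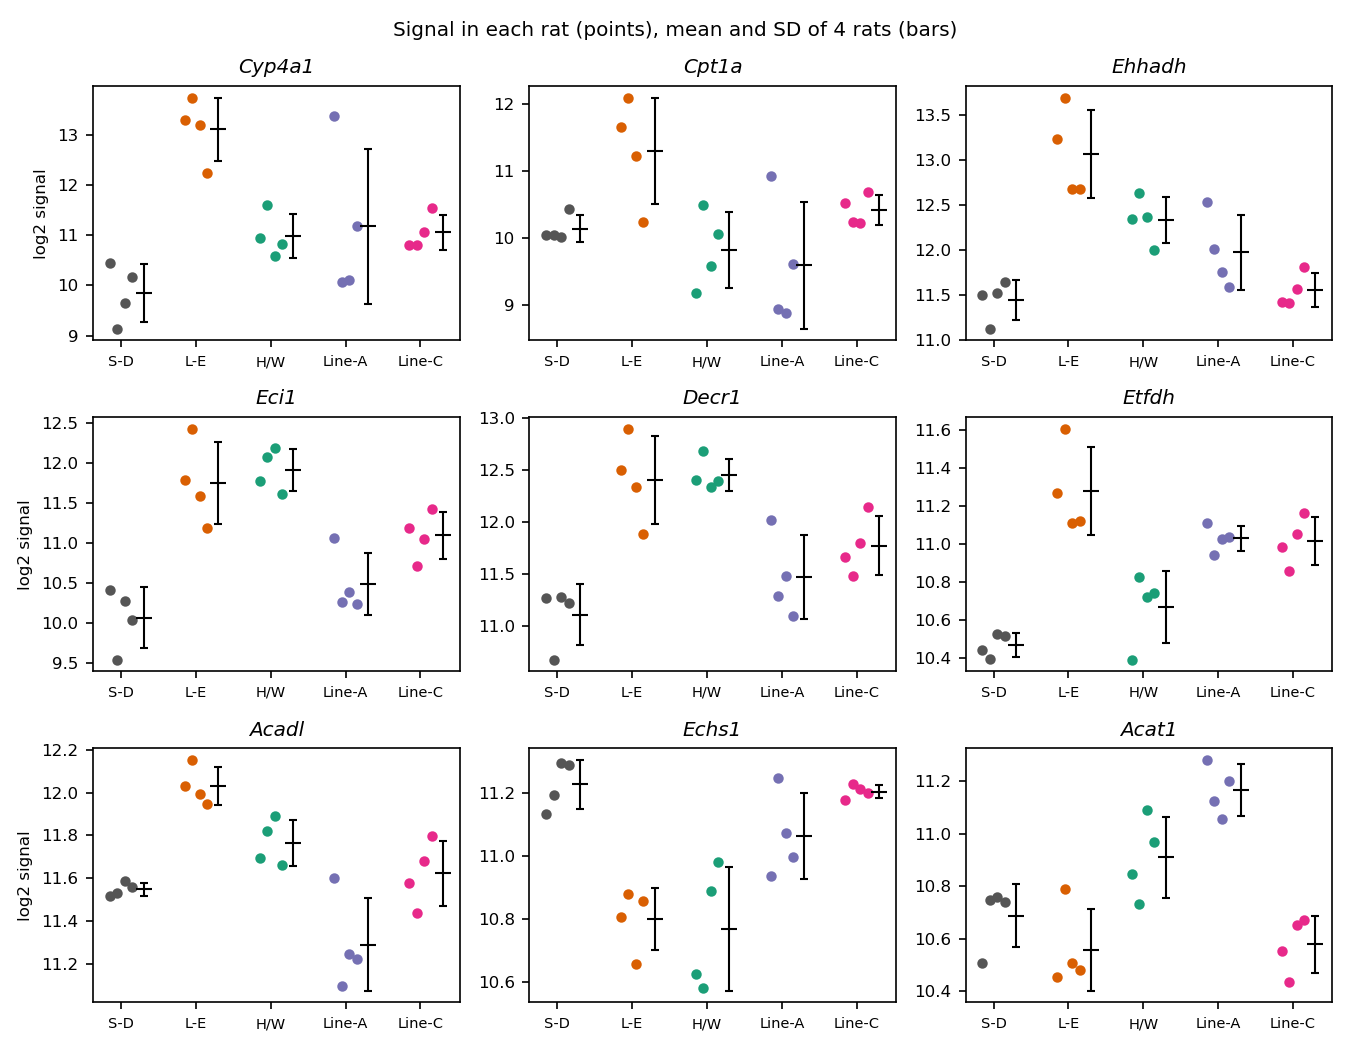
Log2 signal of 9 genes in each rat (points) with the mean and SD of 4 rats (bars) for the 3 strains and both lines, with an axis range of its own for each gene. Ehhadh sits highest in the 4 L-E rats, Eci1 and Decr1 are high in L-E and H/W, Echs1 is low in L-E and H/W, and Acat1 is highest on average in Line-A.

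In the mitochondrial cycle, Etfdh, which passes electrons from the dehydrogenases to ubiquinone, gave 10.44, 10.40, 10.53 and 10.52 in S-D and 11.27, 11.61, 11.11 and 11.12 in L-E. H/W was at 10.39, 10.83, 10.72 and 10.74, Line-A at 11.11, 10.95, 11.03 and 11.04, and Line-C at 10.99, 10.86, 11.06 and 11.16. L-E, Line-A and Line-C thus lay wholly above S-D, and H/W overlapped with it. The excess over S-D was 1.75-fold in L-E (0.81 ± 0.10 SE, adjusted p = 7.42e-05), 1.47-fold in Line-A (adjusted p = 0.00166) and 1.46-fold in Line-C (adjusted p = 0.00281).

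Acadl, the long-chain acyl-CoA dehydrogenase, was tightly grouped. It gave 11.52, 11.53, 11.58 and 11.56 in S-D, 12.03, 12.16, 11.99 and 11.95 in L-E and 11.69, 11.82, 11.89 and 11.66 in H/W. Line-A was at 11.60, 11.10, 11.24 and 11.22 and Line-C at 11.58, 11.44, 11.68 and 11.80. L-E was above every other rat. It exceeded S-D by 0.48 ± 0.09 SE (adjusted p = 0.00243), and Line-A was 1.67-fold below L-E (adjusted p = 9.3e-05) and 1.39-fold below H/W (adjusted p = 0.0045). The dehydrogenase for medium chains, Acadm, was called in 1 pair, Line-C below S-D by 1.43-fold (adjusted p = 0.00678), and those for very long chains, Acadvl, and short chains, Acads, in none.

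Hadha and Hadhb encode the alpha and beta subunits of the mitochondrial trifunctional protein. Hadha was at 10.80, 10.61, 10.82 and 10.74 in S-D and at 11.43, 11.72, 11.26 and 11.07 in L-E, a difference of 0.63 ± 0.14 SE (adjusted p = 0.00757). Hadhb was at 10.80, 10.50, 10.77 and 10.78 in S-D and at 11.78, 11.93, 11.19 and 11.24 in L-E, a difference of 0.82 ± 0.17 SE (adjusted p = 0.00417). No L-E rat overlapped with S-D for either subunit. RefSeq promoter windows, from 250 bases before to 50 after the start site in the GRCr8 assembly, were given for 32 of the 36 genes. Acaa2, Acadl, Cyp4a1 and Decr1 had none. The windows of the neighbours Hadha and Hadhb share 200 bases on opposite strands. The windows are those of the reference assembly, not of the strains measured. The hexamer AGGTCA, the core that PPARA and other nuclear receptors bind, was searched on both strands and was found in 6 of the 32 windows (18.8%), those of Acadvl, Echs1, Eci1, Eci2, Hadhb and Hsd17b4, against 16.2% of 33469 windows of all genes. Its direct repeat AGGTCANAGGTCA was in 0 of the 32 and in 0.0538% of all windows, and the looser AGGNCANAGGNCA, which includes every match of the former, in 0 of 32 and 0.415%. With repeats this rare in all windows, 0 of 32 does not tell whether these genes have fewer of them. The windows of Hadhb (chr6:31907451-31907750, minus strand), Eci1 (chr10:13961000-13961299, plus strand) and Ehhadh (chr11:92746159-92746458, plus strand) are shown for 1 subunit of the complex whose genes lie side by side and for the mitochondrial and peroxisomal genes with the largest called differences between L-E and S-D. Capitals mark AGGTCA or its complement TGACCT, and the Ehhadh window has neither:
Hadhb: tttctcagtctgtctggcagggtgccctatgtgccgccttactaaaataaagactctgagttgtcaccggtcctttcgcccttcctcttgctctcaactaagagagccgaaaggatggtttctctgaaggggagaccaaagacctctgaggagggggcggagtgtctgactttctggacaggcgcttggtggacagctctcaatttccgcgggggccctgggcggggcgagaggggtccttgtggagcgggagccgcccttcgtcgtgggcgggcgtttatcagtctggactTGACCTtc
Eci1: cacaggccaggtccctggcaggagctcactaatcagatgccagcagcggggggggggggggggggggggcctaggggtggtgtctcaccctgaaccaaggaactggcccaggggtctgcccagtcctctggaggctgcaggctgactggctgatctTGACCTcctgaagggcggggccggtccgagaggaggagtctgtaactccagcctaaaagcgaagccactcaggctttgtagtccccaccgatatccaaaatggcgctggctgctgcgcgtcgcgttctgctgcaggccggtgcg
Ehhadh: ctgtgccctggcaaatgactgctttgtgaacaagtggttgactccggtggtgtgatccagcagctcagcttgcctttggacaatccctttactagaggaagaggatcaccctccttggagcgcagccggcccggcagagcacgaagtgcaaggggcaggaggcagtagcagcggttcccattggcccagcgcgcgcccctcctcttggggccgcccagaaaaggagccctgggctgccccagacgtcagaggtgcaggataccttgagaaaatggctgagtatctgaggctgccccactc

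Echs1, the short-chain enoyl-CoA hydratase, ran the other way. It gave 11.13, 11.19, 11.29 and 11.29 in S-D, 10.81, 10.88, 10.66 and 10.86 in L-E and 10.62, 10.58, 10.89 and 10.98 in H/W. Line-A was at 10.94, 11.25, 11.07 and 11.00 and Line-C at 11.18, 11.23, 11.21 and 11.20. L-E and H/W lay below every S-D and Line-C rat. L-E was 1.34-fold below S-D (adjusted p = 0.00292), H/W was 1.37-fold below S-D (adjusted p = 0.00236), and Line-C was above L-E by 0.40 (adjusted p = 0.00597) and above H/W by 0.44 (adjusted p = 0.00603).

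Other steps added smaller calls or none. Acsl1, the main acyl-CoA synthetase of liver, was higher in L-E than in S-D by 0.27 ± 0.05 SE (adjusted p = 0.00324), and its second ProbeSet gave 0.21 (adjusted p = 0.0028). The ProbeSet shared by the peroxisomal thiolases Acaa1a and Acaa1b was 1.41-fold higher in L-E than in S-D (adjusted p = 0.00148). The ProbeSets of Cpt1a, the carnitine palmitoyltransferase of the outer membrane that controls entry of long chains, differed. Its brighter one gave 10.05, 10.05, 10.02 and 10.44 in S-D and 11.66, 12.09, 11.23 and 10.23 in L-E, where L-E replicate 4 fell inside the S-D range, and no pair was called. Its second one gave 8.28, 8.33, 8.54 and 8.84 in S-D and 11.08, 11.14, 10.47 and 9.56 in L-E, and L-E exceeded S-D 4.18-fold (2.06 ± 0.47 SE, adjusted p = 0.00896). A dim second ProbeSet of Pex11a, which acts in peroxisome division, stood at 5.18, 5.01, 4.88 and 5.31 in L-E and below the limit of 4 in every S-D rat, so L-E was at least 2.14-fold higher (adjusted p = 0.000116), while the brighter one was not called in any pair.

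No pair was called for 17 of the 35 genes, counting each by its brighter ProbeSet. They were the synthetases Acsl3 and Acsl5, Cpt1a, the inner-membrane transferase Cpt2, the carnitine carrier Slc25a20, the carnitine acetyltransferase Crat, Acadvl, Acads, the 3-hydroxyacyl-CoA dehydrogenase Hadh, the flavoprotein subunits Etfa and Etfb, the peroxisomal importer Abcd3, Pex11a, the peroxisomal oxidase Acox2, the bifunctional enzyme Hsd17b4 and the thioesterases Acot1 and Acot2. Between L-E and S-D their differences ran from -0.36 for Abcd3 to 1.17 for Cpt1a. For Abcd3, Etfa, Acot2 and Pex11a the rats of L-E and S-D did not overlap although the pair was not called (Acot2 1.10, adjusted p = 0.0211; Pex11a 1.11, adjusted p = 0.0157). Crat reached 7.27 in L-E replicate 2 and 6.97 in H/W replicate 3, Acot2 8.80 in L-E replicate 2 and Acox2 8.63 in H/W replicate 3. A second ProbeSet of Hadh passed the F-test, but with means near 2 it was below the limit of expression in every group, and no direction was read from it.

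**Figure D3:**
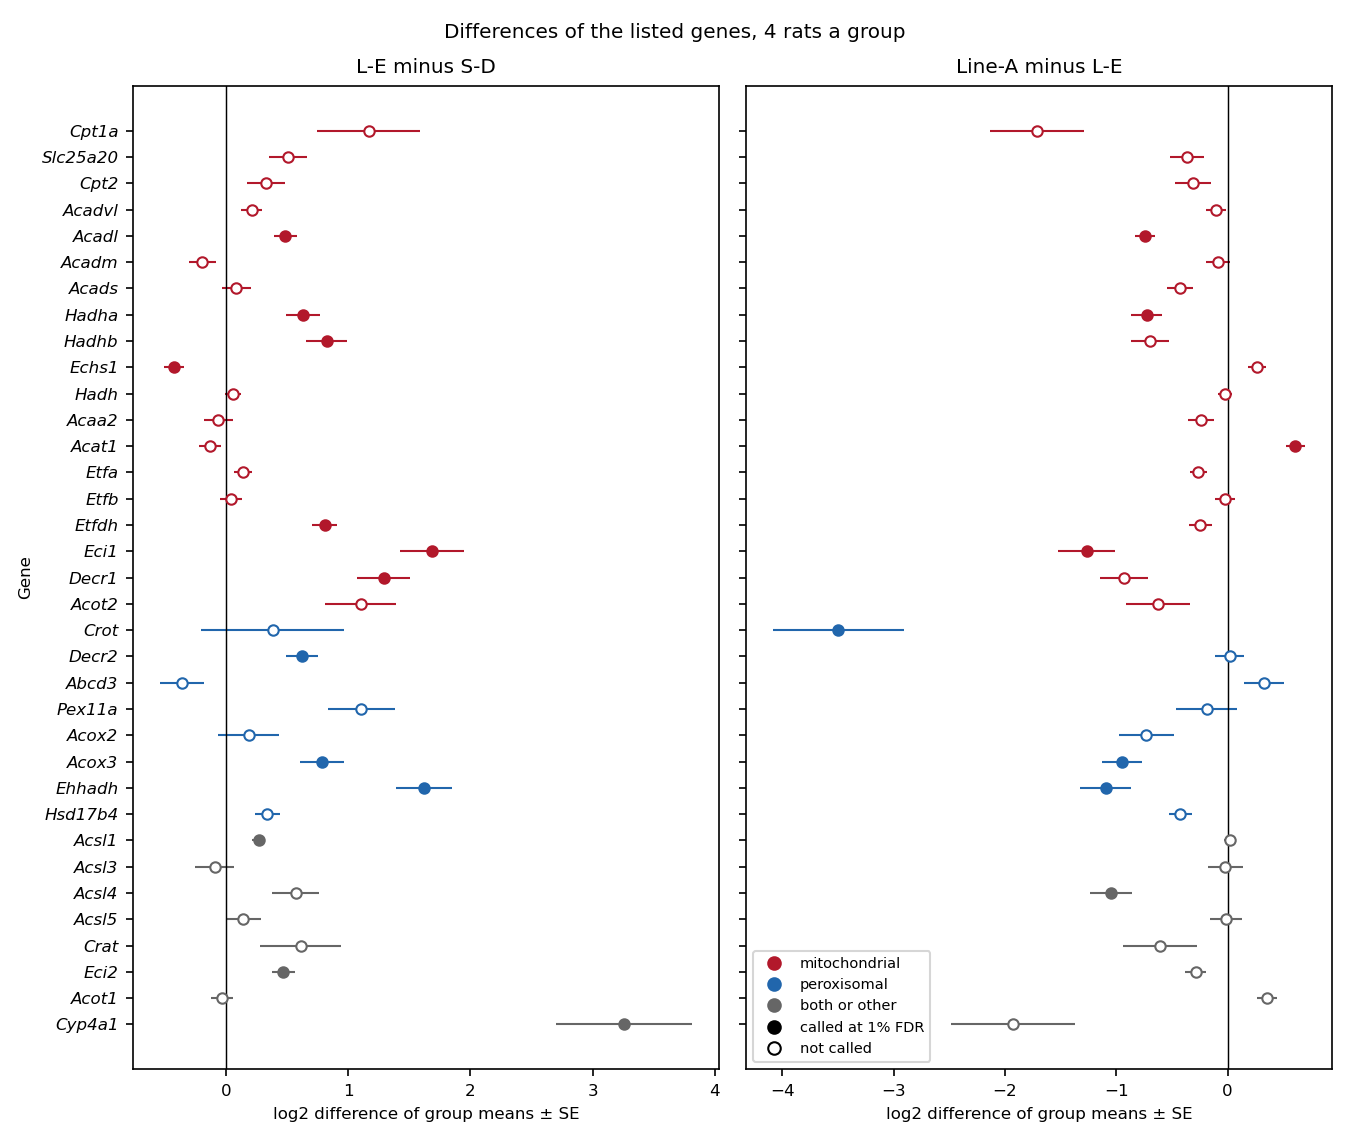
Log2 difference of group means with its SE for each of the 35 genes (left, L-E minus S-D; right, Line-A minus L-E; 4 rats a group). Colour gives the compartment and filled points were called at 1% FDR. On the left 12 filled points lie above 0 and 1, Echs1, below it, and on the right 1, Acat1, lies above 0 and 7 below it.

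The L-E rats themselves differed along the pathway. L-E replicate 2 was the highest of its 4 in 26 of the 34 expressed listed genes, against 26.5% of all expressed genes, and L-E replicate 4 was the lowest in 16, against 19.4%. Without L-E replicate 2, 6 genes were called higher and 1 lower than in S-D, against 2.80% of expressed genes called higher, and the median difference was 0.27. Without L-E replicate 1 the counts were 7 higher and 1 lower, without replicate 3 they were 9 and 0, and without replicate 4 they were 12 and 1. Without S-D replicate 2 or 4 the calls in both directions numbered 8. Eci1, Decr1, Ehhadh, Etfdh and Cyp4a1 were called whichever L-E rat was left out. In the other groups 1 rat also led or trailed. S-D replicate 2 was the lowest of its 4 in 21 of 34 genes, against 27.0% of all genes. Line-A replicate 1 was the highest in 21, against 26.6%, and Line-C replicate 4 the highest in 20, against 24.3%. H/W replicate 3 was the highest of its group in 14 of 34 but in 41.9% of all genes, and its GAPDH 3′ minus 5′ signal of 0.81 was the highest of the 20 arrays.

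To set the mitochondrial beside the peroxisomal steps, each gene's mean over the 20 rats was subtracted, and the median over the genes of a compartment was taken in each rat. In L-E the peroxisomal median was 0.44 ± 0.17 (SD, n = 4) and the mitochondrial median 0.20 ± 0.20. All 4 L-E rats, at 0.31 to 0.66, had a higher peroxisomal median than any other rat, the next being H/W replicate 3 at 0.20. The peroxisomal median exceeded the mitochondrial one in each L-E rat, by 0.25 ± 0.08 (SD, n = 4; 0.17 to 0.31). The same difference was -0.00 ± 0.07 in S-D, 0.01 ± 0.12 in H/W, -0.02 ± 0.04 for Line-A and -0.07 ± 0.10 for Line-C. Outside L-E the highest was 0.10, in H/W replicate 1. With all ProbeSets counted it was 0.37 in L-E. With a mean in place of the median over genes the Line-A difference was -0.21. Unlike the median, that mean takes in the full size of the low Crot signal of most Line-A rats, described below. No p is given, as these are scores over chosen genes.

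**Figure D4:**
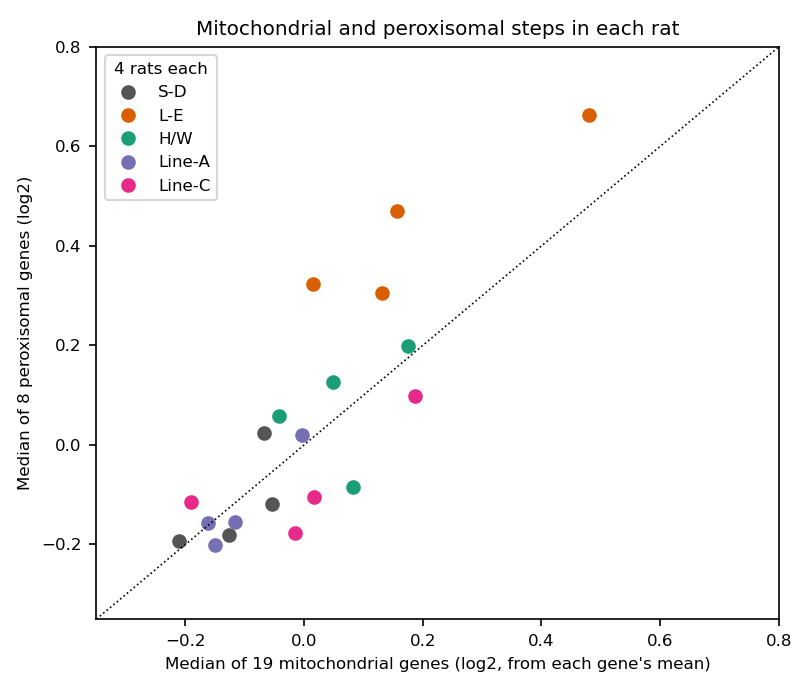
Median of 8 peroxisomal genes against the median of 19 mitochondrial genes in each of the 20 rats, as log2 signal from each gene's mean over all rats, with the line of equality dotted. The 4 L-E rats lie above the line, by 0.17 to 0.31, and the other rats scatter on both sides of it.

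H/W and L-E, the parents of the lines, differed in few of these genes. None was called higher in H/W and 1 lower, against 1.04% and 1.47% of expressed genes, and the median difference was -0.12. That gene was Etfdh, 1.52-fold lower in H/W (-0.61 ± 0.10 SE, adjusted p = 0.00296). With scan day as a fixed block on the 8 arrays of these strains, the difference was -0.62 ± 0.15 SE (adjusted p = 0.253), in a fit that called 14 ProbeSets in all. Within the scan day that held 3 L-E and 2 H/W rats it was -0.51 (adjusted p = 0.661). With L-E replicate 4 or Line-A replicate 1 left out the count was 2. H/W against S-D gave 3 genes higher (Eci1, Decr1 and Decr2) and 1 lower (Echs1), against 1.91% and 4.36% of expressed genes.

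The lines share their parents and differ in the Ahr allele, and their 8 arrays shared a scan day. Of the 35 genes 1 was higher and 1 lower in Line-A than in Line-C, against 0.483% and 0.501% of expressed genes. Both stand at the last, thiolytic step in the mitochondrion, but they moved in opposite directions. Hadha, Hadhb, Echs1 and Hadh, listed with them under mitochondrial hydration, dehydrogenation and thiolysis, were not called between the lines. Acat1, the acetoacetyl-CoA thiolase, gave 11.28, 11.12, 11.06 and 11.20 in Line-A and 10.55, 10.43, 10.65 and 10.67 in Line-C. Acaa2, the 3-ketoacyl-CoA thiolase, gave 12.25, 12.08, 12.17 and 12.08 in Line-A, and 12.98, 12.63, 12.93 and 12.85 in Line-C. For neither gene did the lines overlap. Acat1 was higher in Line-A by 0.59 ± 0.09 SE (adjusted p = 0.00171), and Acaa2 was 1.63-fold lower (-0.70 ± 0.12 SE, adjusted p = 0.00464).

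In the parents, which differ in the same allele, Acat1 was at 10.85, 10.73, 11.09 and 10.97 in H/W and at 10.45, 10.79, 10.51 and 10.48 in L-E, with 1 L-E rat inside the H/W range. Acaa2 was at 12.14, 12.03, 12.65 and 12.51 in H/W and at 12.32, 12.55, 12.32 and 12.33 in L-E, with the groups overlapping. S-D was at 10.51, 10.75, 10.76 and 10.74 for Acat1 and at 12.50, 12.27, 12.62 and 12.40 for Acaa2. In the genetic model, where each line takes equal shares of both parents and an Ahr term is added for H/W and Line-A, the Ahr term was called for Acat1 (0.59, adjusted p = 0.00667) and Acaa2 (-0.70, adjusted p = 0.0104), 2 of the 35 genes against 1.34% of expressed genes at 5% FDR. In this model the estimate equals Line-A minus Line-C for every ProbeSet, so it restates the difference of the lines and adds nothing from the parents. When the 8 arrays of the lines were fitted alone, the adjusted p was 0.0156 for Acat1 and 0.0158 for Acaa2, in a fit that called 43 ProbeSets at 1% FDR. The number of called genes was 1 without any 1 of Line-A replicates 2, 3 and 4 or Line-C replicates 1, 3 and 4, and it was 4 without Line-A replicate 1.

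Whether the parental difference was matched in the lines was tested by the contrast of H/W minus L-E with Line-A minus Line-C, which was called for 2 of the 35 genes at 5% FDR, against 3.93% of expressed genes. For Etfdh, H/W was 0.61 below L-E whereas Line-A and Line-C differed by 0.01, a contrast of -0.62 (adjusted p = 0.0355). For Acsl1, H/W was 0.23 below L-E and Line-A was 0.18 above Line-C, a contrast of -0.42 (adjusted p = 0.00597). Acaa2 did not pass (0.65, adjusted p = 0.0577). The count was 1 without L-E replicate 1, Line-A replicate 3 or 4, or Line-C replicate 1 or 3.

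Several genes lay outside both parents in Line-A. Called against L-E and H/W in the same direction at 5% FDR, 5 genes were lower in Line-A (Eci1, Acadl, Decr1, Crot and Acsl4) and 1 was higher (Echs1), against 4.42% and 4.06% of expressed genes. For Line-C 2 were higher (Echs1 and Acaa2) and 0 lower, against 2.26% and 2.04%. Against L-E alone, 7 genes were lower in Line-A and 1, Acat1, higher at 1% FDR, against 5.66% and 5.01%, with a median difference of -0.31 and 29 of 35 negative, where the median over expressed genes was 0.05. All Line-A rats lay below all L-E rats for 15 genes, against 12.0% of expressed genes. The lower genes were Crot, Eci1, Ehhadh, Acsl4, Acox3, Acadl and Hadha. Acsl4, a synthetase that prefers arachidonic acid, was 2.07-fold lower (-1.05 ± 0.19 SE, adjusted p = 0.00186). Line-A was also 6.59-fold below L-E on the second Cpt1a ProbeSet (adjusted p = 0.00135). Called genes numbered 16 without H/W replicate 3, 13 without Line-A replicate 1 and 5 without Line-A replicate 3 or 4. With scan day as a random block 2 were called, Acadl (adjusted p = 0.00215) and Acat1 (adjusted p = 0.00557), against 2.56% of expressed genes, in a fit that cannot remove a day effect from this pair.

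Crot, the carnitine octanoyltransferase that readies the shortened chains for leaving the peroxisome, had the widest spread within a group. Its signal was 10.48, 10.53, 10.18 and 10.43 in S-D, 10.71, 11.40, 10.63 and 10.40 in L-E and 10.89, 10.86, 10.97 and 11.40 in H/W. Line-C was at 9.78, 10.55, 10.15 and 9.98. In Line-A, replicate 1 was at 9.94 and replicates 2, 3 and 4 at 6.03, 7.11 and 6.07, so replicate 1 lay within the Line-C range and the other Line-A rats below every rat of the other groups.

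The second Crot ProbeSet showed the same division. It read 6.79 in Line-A replicate 1 and 3.24, 3.26 and 3.26 in replicates 2, 3 and 4, which is below the limit of expression. It read 6.73, 7.17, 6.79 and 7.09 in Line-C, 7.42, 7.31, 7.14 and 7.28 in S-D, 8.49, 8.84, 7.96 and 8.11 in L-E and 8.08, 8.65, 8.85 and 8.62 in H/W. Against the limit of 4, the H/W mean was 23.4-fold higher, the L-E mean 20.4-fold, the S-D mean 9.76-fold and the Line-C mean 7.70-fold, which bounds from below how far those 3 Line-A rats lay under the other groups.

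With all 4 Line-A rats, the first Crot ProbeSet was 13.4-fold below H/W (-3.74 ± 0.59 SE, adjusted p = 0.000935), 11.3-fold below L-E (adjusted p = 0.00107) and 8.68-fold below S-D (adjusted p = 0.00191), the difference from Line-C was not called, and the F-test was not called either (adjusted p = 0.00111). With scan day as a random block all 3 calls were lost (adjusted p = 0.0104 against H/W, 0.0138 against L-E and 0.0325 against S-D). Without Line-A replicate 1 the Line-A mean was 24.7-fold below H/W, 20.9-fold below L-E and 13.1-fold below Line-C. These folds are given with no test, since that rat was singled out for its Crot signal. Line-A replicate 1 shared its scan day, chip lot and operator with the other Line-A rats, and its GAPDH 3′ minus 5′ signal of 0.39 lay within their range. Why it differed was not tested, and the Crot mean of Line-A pools rats of unlike signal.

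**Figure D5:**
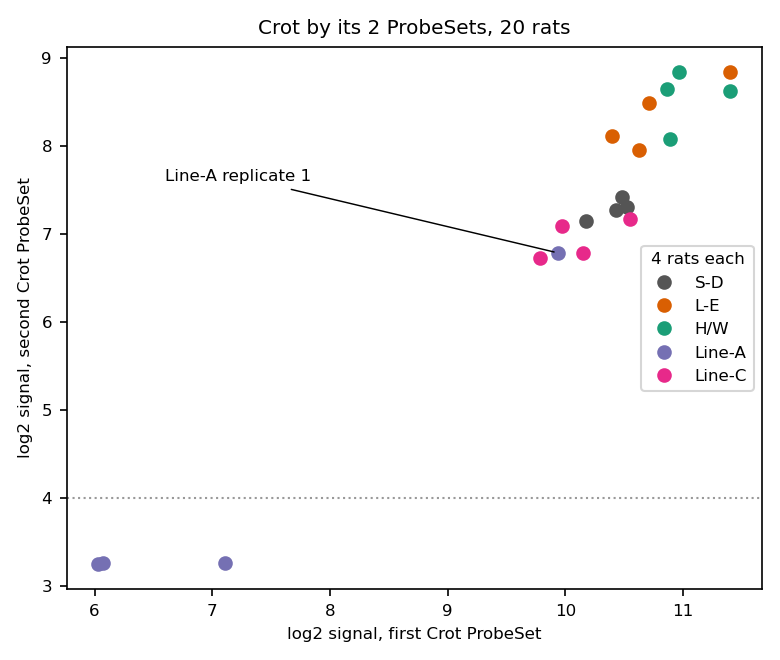
The first against the second Crot ProbeSet in each of the 20 rats, both as log2 signal, with the limit of expression of 4 dotted. All rats of the strains and of Line-C lie with Line-A replicate 1 at the upper right, and Line-A replicates 2, 3 and 4 at the lower left, at 6.03 to 7.11 on the first and 3.24 to 3.26 on the second ProbeSet.

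The remaining pairs held few of the 35 genes, and with scan day as a random block none was called in any of the 5 pairs described here. Line-C was below L-E for Ehhadh and Acox3 (-0.92, adjusted p = 0.00423) and above it for Echs1, that is 2 lower and 1 higher against 3.43% and 3.41% of expressed genes, with a median of -0.30 and 29 of 35 negative. The count of 3 was 7 without H/W replicate 3, 5 without Line-A replicate 1 and 1 without L-E replicate 1, 2 or 4 or Line-C replicate 1 or 2. Line-C against S-D gave 3 higher (Etfdh, Decr2 and Eci2) and 1 lower (Acadm), against 3.23% and 4.86%, a count of 4 that was 0 without Line-C replicate 4, 1 without S-D replicate 2, 3 or 4, Line-A replicate 3 or Line-C replicate 1, and 2 without S-D replicate 1, Line-A replicate 2 or Line-C replicate 2. Line-A against S-D gave 4 higher (Acsl1, Acat1, Etfdh and Decr2) and 1 lower (Crot), against 5.09% and 7.44%, and 8 in all without H/W replicate 3. Line-A was below H/W for Crot, Eci1 and Acadl and above it for Acsl1 (0.25, adjusted p = 0.00813, a call lost in all 6 refits with another scaling, filter, variance prior or block and in 12 of 20 fits with 1 array left out), against 2.80% and 2.95%, and the total was 1 without any of H/W replicates 2 and 3 or Line-A replicates 2, 3 and 4. Line-C was above H/W for Echs1 alone and below it for none, against 1.80% and 1.58%, a call lost without H/W replicate 1 or 2 or any 1 Line-C rat, and the count was 2 without H/W replicate 3.

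Among neighbouring pathways, counted over their genes above the limit of expression, the F-test at 0.1% FDR called 3 of 15 regulators and fasting-responsive genes, 3 of 12 genes of uptake, binding and lipolysis, 0 of 3 of ketone body synthesis, 1 of 12 other mitochondrial oxidation genes, 3 of 28 other peroxisomal genes and 0 of 9 other omega-oxidation genes, against 8.98% of expressed genes. Between L-E and S-D, 5 of the 28 peroxisomal and 4 of the 12 uptake genes were higher in L-E and none of either list was lower, 3 of the 12 mitochondrial genes were higher and 2 lower, 1 of the 15 regulators was higher and 2 lower, 0 of the 9 omega-oxidation genes were higher and 1 lower, and none of the ketone body genes was called, against 3.73% higher and 5.83% lower among expressed genes. Ech1, a dienoyl-CoA isomerase of both organelles, was on both the mitochondrial and the peroxisomal list, so the counts of these lists share a gene. Ephx2, an epoxide hydrolase of cytosol and peroxisome, was at 4.16 ± 0.48 (SD, n = 4) in S-D and 10.38 ± 0.56 in L-E, a difference of 6.22 (adjusted p = 2.12e-11), with every rat outside S-D above 9. Slc27a5, a bile acid and very long-chain acyl-CoA synthetase, was 1.40 higher in L-E than in S-D (adjusted p = 1.08e-05). Dbi, the acyl-CoA binding protein, was 0.63 higher (adjusted p = 1.86e-06), Fabp1, the liver fatty acid binding protein, 0.26 higher (adjusted p = 0.000656), Acot4, a peroxisomal thioesterase, 1.99 higher (adjusted p = 0.00079) and Pecr, a peroxisomal reductase of trans-2-enoyl-CoA, 0.37 higher (adjusted p = 0.000422). Of the regulators, the AMP-activated kinase subunit Prkaa2 was 1.29 lower in L-E than in S-D (adjusted p = 0.00453), and the mitochondrial deacetylase Sirt3 was 2.30 lower in Line-C than in L-E (adjusted p = 2.3e-05). The paper lists Sirt3 among the transcripts whose levels depended on Ahr, by the model term that equals Line-A minus Line-C. Line-C and L-E both carry wild-type Ahr, so their difference is another comparison and is not set against that result. The ProbeSet of Ppara, named after its value was seen, lay below the limit in every rat, so the receptor's own mRNA was not measured here.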

How the data were processed

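Labelled liver RNA of 20 rats, 1 per array, was hybridised to Affymetrix RAE230A arrays. The authors deposited log2 signals made with GC-RMA (R 2.6.1, affy 1.12.0 and GCRMA 2.10.0 per the labels), which corrects probes for background by GC content, quantile normalises the arrays and summarises each ProbeSet, so a shift of all genes together is removed. The values were used as deposited, and array header files only gave scan day, chip lot and operator. Linear models were fitted on all 15923 ProbeSets in R 4.3.3 with limma 3.58.1 (statmod 1.5.0 for random blocks), 1 mean per group, two-sided, after a test on simulated data. Benjamini-Hochberg adjustment covered all ProbeSets, with calls at 0.1% FDR for F, 1% for pairs and 5% for the Ahr term, the lines against their parents and the interaction. Arrays give no depth, and their number limits the precision. Every listed gene is accounted for; every rat's value is given for genes called by F and for the 2 with the widest spread within groups. The members, the pathway and marker lists and the rule for naming genes were chosen with earlier results of these data known. Alternatives were other scalings, a signal filter, a variance trend, blocks, thresholds, all ProbeSets and each array left out. ProbeSets annotated to several genes stood for none of them. Promoter windows came from RefSeq.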

Additional observations from a re-analysis of the deposited data

Results flagged for a closer look

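In 17 of 175 combinations of a listed gene and a group of 4 rats, 1 rat stood apart from the other 3 by more than the critical value of Dixon's test, where chance gives about 1 in 20 for a single combination. The combinations are not independent, since all genes were read in the same rats and 1 rat could be flagged for several genes, so no excess over chance is read from the count. Those in S-D were Acat1 replicate 1 at 10.51 (the others 10.74 to 10.76), Cpt1a replicate 4 at 10.44 (10.02 to 10.05), and replicate 2 for Decr1 at 10.68 (11.23 to 11.28), Etfa at 11.70 (11.86 in the others) and Hadhb at 10.50 (10.77 to 10.80). In L-E the rat was replicate 2 each time, for Acaa2 at 12.55 (12.32 to 12.33), Acat1 at 10.79 (10.45 to 10.51), Cpt2 at 9.25 (8.87 to 8.92) and Pex11a at 8.36 (7.55 to 7.68). In H/W it was replicate 3 for Crat at 6.97 (5.58 to 5.72). Those in Line-A were Acot1 replicate 4 at 4.06 (3.63 to 3.71), Acot2 replicate 2 at 6.71 (7.02 to 7.06), Acsl5 replicate 3 at 9.89 (10.11 to 10.13) and Pex11a replicate 1 at 8.61 (7.20 to 7.37). Those in Line-C were Abcd3 replicate 3 at 9.27 (9.70 to 9.76), Crat replicate 3 at 5.73 (5.56 to 5.58) and Etfb replicate 2 at 10.95 (11.34 to 11.40).

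The H/W minus L-E difference was tested against the Line-A minus Line-C difference by an interaction contrast, and it differed for Acsl1 (-0.42, limma adjusted p = 0.00597) and Etfdh (-0.62, limma adjusted p = 0.0355).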

How the results depend on the processing

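No call reversed its direction under any alternative. Of the 45 calls of a listed gene in a pair, 8 were kept in all of the refits with another scaling, filter, variance prior or block, and 20 whichever of the 20 arrays was left out. Of the 7 genes called by F, 0 were kept in all those refits and 2 (Eci1 and Etfdh) whichever array was left out. Counts of listed genes that moved by over 1.5 times follow. With equal array medians, which shifted 1 array by up to 0.14, they were 4 for F, 1 for Line-A against Line-C, 2 for Line-A against S-D, 1 for Line-C against S-D and 0 for Line-C against H/W. On ProbeSets with a mean of at least 4 they were 2 for H/W against L-E, 11 for lines outside both parents and 5 for the interaction. With scan day as a random block they were 0 for F, 3 for L-E against S-D, 1 for H/W against S-D, 0 for Line-A and 0 for Line-C against S-D, 2 for Line-A and 0 for Line-C against L-E, 0 for Line-A and 0 for Line-C against H/W, and 3 for lines outside both parents. That fit cannot remove a day effect from pairs in which scan day and group cannot be told apart. With all ProbeSets counted they were 2 for H/W against L-E, 8 for Line-A against S-D and 4 for the interaction. At 5% FDR they were 25 for F, 5 for H/W against L-E, 8 for H/W and 9 for Line-A against S-D, 19 for Line-A and 14 for Line-C against L-E, and 9 for Line-A and 3 for Line-C against H/W, and F at 1% FDR called 16. H/W against L-E called 0 with scan day as a fixed block on 8 arrays and 0 within 1 scan day, and Line-A against Line-C 0 on the lines' arrays alone. The peroxisomal minus mitochondrial difference moved to 0.37 in L-E and -0.10 in Line-A with all ProbeSets and to -0.21 in Line-A with a mean over genes. With 1 array left out in turn, counts ranged over 3 to 9 for F, 1 to 2 for H/W against L-E, 1 to 4 for Line-A against Line-C, 7 to 13 for L-E, 3 to 5 for H/W, 4 to 8 for Line-A and 0 to 5 for Line-C against S-D, 5 to 16 for Line-A and 1 to 7 for Line-C against L-E, 1 to 5 for Line-A and 0 to 2 for Line-C against H/W, 2 to 2 for the Ahr term, 5 to 9 for lines outside both parents and 1 to 3 for the interaction, and the median W/T over 0.347 to 0.448. The cause of these changes was not tested.

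Same-numbered rats of different groups were not treated as pairs. The 40 correlations of their deviations from group means ran from -0.34 to 0.22, 6 were above 0.1, and 3 of 20 arrays correlated best with their own number. Some same-numbered arrays did share a scan day, as all those of Line-A and Line-C did. H/W and L-E shared theirs for replicates 1, 2 and 3, with correlations of 0.12, 0.22 and -0.15. With the replicate number as a block, the counts were 1 for F, 2 for Line-C against S-D, 2 for Line-A against H/W and 1 for the interaction.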

Other observations

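A few genes of neighbouring lists, chosen after their values were seen, are given by rat. Ech1, a dienoyl-CoA isomerase of both organelles, was at 10.06, 9.23, 9.87 and 10.00 in S-D and at 12.61, 13.04, 11.73 and 10.85 in L-E, with replicate 2 highest and replicate 4 lowest in L-E and replicate 2 lowest in S-D. In Line-A it was at 11.21 in replicate 1 and at 9.85, 9.61 and 9.75 in the others. Cyp4a3, another omega-hydroxylase, was at 10.57 in Line-A replicate 1 and at 8.43, 8.87 and 8.81 in the others, and at 10.17, 10.34, 9.92 and 10.93 in Line-C. Pdk4, a kinase that limits pyruvate oxidation in fasting, did not exceed 6.16 in S-D and was at 6.98, 8.35, 8.15 and 7.06 in L-E. In Line-A it was at 7.26 in replicate 1, with another rat at 7.18, so replicate 1 did not stand apart.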
